A study of Mus musculus with 10 samples.

Results

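Chemokines are small secreted proteins that guide the movement of cells, and chemokine receptors are the G protein-coupled receptors that sense them. All probe sets whose platform symbol begins with Ccl, Cxcl, Xcl, Ccr, Cxcr or Ackr and a digit, or is Cx3cl1 or Cx3cr1, were taken from a study of mouse osteoblasts, the bone-forming cells. The members were chosen by name and not by their values. They came to 85 of the 45101 probe sets, for 53 of the 18194 genes with a probe set of their own. A further 4 probe sets list several genes with a chemokine among them and were not used for any gene.

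Total RNA from osteoblasts of mice aged 2 to 3 days was hybridised to 10 Affymetrix arrays. Wild type had 4 samples, osteoblast-specific constitutive expression of β-catenin (called β-catenin active here) had 3, and osteoblast-specific deletion of FoxO1 had 3. The background strain is written C5BL6 in the labels for all samples, and their gender is given as indeterminate. The promoter behind the osteoblast-specific changes, and whether a sample was 1 animal, a pool or a culture, are not given in the sources used here, and the p-values below therefore rest on sample-to-sample spread that could be technical.

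CXCL12 holds blood stem cells and B cell precursors in the bone marrow through the signalling receptor CXCR4. ACKR3, formerly CXCR7, binds the same ligand without coupling to G proteins in the usual way and takes it up from the surroundings. CC chemokines such as CCL2 call in monocytes, and CXCL9, CXCL10 and CXCL11 are made in response to interferon and call in T cells through CXCR3. In bone, osteoblast-lineage and reticular stromal cells are a known source of CXCL12, and osteoclast precursors respond to CCL9 through CCR1.

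Values are log2 MAS5 signal. A probe set was kept if its third-highest value of 10 lay above the table's median of 7.15, and each gene was tested by its kept probe set of highest mean among 11357 genes in all. Levels are compared only within a probe set. Of the 53 genes, 17 were tested, 11 of them above the median in all 10 arrays, and 0 of them were above it in the arrays of 1 genotype only. Both comparisons with wild type use the same 4 wild-type arrays.

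Before the results, 3 features of the arrays are needed. FoxO1 deleted 3 stood apart by its high signals. In it, 128 of the 34958 probe sets with 1 gene (0.366%) were above the median and at least 2 log2 units above every wild-type array. Such probe sets numbered 19, 9 and 9 in β-catenin active 1 to 3 (0.0544%, 0.0257% and 0.0257%). They numbered 6 and 3 in FoxO1 deleted 1 and 2 (0.0172% and 0.00858%). FoxO1 deleted 3 correlated with the 9 other arrays at 0.944 to 0.959 over the tested genes. That range overlaps the 0.954 to 0.979 of 34 other pairs. Among the wild-type arrays, 1 with 2 reached 0.990 and 3 with 4 reached 0.989, where every other pair of arrays was at 0.979 or less. The Actb 3' minus 5' signal, which rises as RNA degrades, was 0.60 to 0.77 in wild type, 0.85 to 0.88 with active β-catenin and 0.80 to 0.99 with FoxO1 deleted. The part of RNA quality in the results was not tested. All 7 osteoblast markers with a probe set were above the median in every array, among them Sp7, Col1a1, Ibsp and Dmp1. The markers Csf1r of macrophages and Ctsk and Acp5 of osteoclasts were also above it in every array, so RNA of other bone cells was measured too. In such mixed RNA, fewer cells of a type and less RNA per cell cannot be told apart.

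The first question was what active β-catenin did to these genes. Ackr3, the scavenging receptor of CXCL12, rose 1.67-fold, and it was the 1 member of 17 to pass the test. Cxcl12 itself lay lower in every array with active β-catenin than in any wild-type array but did not pass. Over all genes 0.784% passed in this comparison, 0.599% as higher and 0.185% as lower.

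Ackr3 stood at 11.57, 11.64, 11.60 and 11.75 in wild type 1 to 4. It stood at 12.64, 12.26 and 12.23 in β-catenin active 1 to 3. In FoxO1 deleted 1 to 3 it stood at 11.54, 11.64 and 11.51. All 3 arrays with active β-catenin were thus above all others, with 1 of them clearly highest, while wild type and FoxO1 deleted overlapped. Wild type averaged 11.64 ± 0.08 (SD, n = 4) and active β-catenin 12.38 ± 0.23 (SD, n = 3), a log2 difference of 0.74 ± 0.10 (SE; limma adjusted p = 0.00694).

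The call held without any 1 of the 10 arrays, with differences from 0.61, without β-catenin active 1, to 0.81 and adjusted p of 0.0329 at most. It was lost when wild type 1 and 2, and likewise 3 and 4, were averaged before the fit (0.74, adjusted p = 0.138). It was also lost with a block for replicate number (0.77, adjusted p = 0.0696) and with a term for Xist signal (0.79, adjusted p = 0.0582). Xist, the RNA of the inactive X chromosome, was high in wild type 3 and 4 and in FoxO1 deleted 2 and 3, and low in the other arrays. Among arrays with low Xist alone the Ackr3 difference was 0.77 (limma adjusted p = 0.0393). That fit counts wild type 1 and 2, which correlated at 0.990, as 2 samples, so its p may understate the spread.

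Against FoxO1 deleted, Ackr3 was higher with active β-catenin by 0.81 ± 0.11 (SE; limma adjusted p = 0.00615), again the 1 member of 17 to pass, where 0.669% of all genes passed, 0.581% as higher and 0.0881% as lower. That call was lost in a fit of these 2 genotypes alone (adjusted p = 0.0683), with the Xist term (0.105) and among low-Xist arrays (0.188), with differences of 0.81, 0.87 and 0.84. Only 1 array with FoxO1 deleted has low Xist signal. Ackr3 differed between FoxO1 deleted and wild type by -0.08 ± 0.10 (SE; limma adjusted p = 0.877). The platform names 1 probe set for Ackr3, so the rise rests on that probe set alone.

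Summed marker signals of vessel and stromal cells were also higher with active β-catenin than in wild type. The stromal sum was higher with FoxO1 deleted too. The summed linear signal of 8 endothelial markers was 6470 to 6780 in wild type, 7960 to 8930 with active β-catenin and 6800 to 7130 with FoxO1 deleted. Each of the 8 had a positive difference from wild type with active β-catenin (median 0.41), and limma called 0 of them. The sum of 8 pericyte and reticular stromal markers was 16000 to 16600 in wild type. It was 19300 to 29200 with active β-catenin and 19400 to 19500 with FoxO1 deleted. Pdgfrb and Rgs5 had the highest signals of the 8, so they weigh most in this sum. Of the 8, 7 had a positive difference from wild type under active β-catenin (median 0.31) and 6 under FoxO1 loss (median 0.21). Limma called 0 of the 8 in either comparison. Among reticular markers, Foxc1 differed by -0.16 in each mutant. Lepr differed by 0.155 and -0.01, and Ebf3 by 0.26 and 0.19, in the same order. Rgs5, a pericyte marker, was highest in β-catenin active 1 at 13.52, the array that is also highest for Ackr3. The part of these cells in the Ackr3 rise was not tested.

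**Figure D1:**
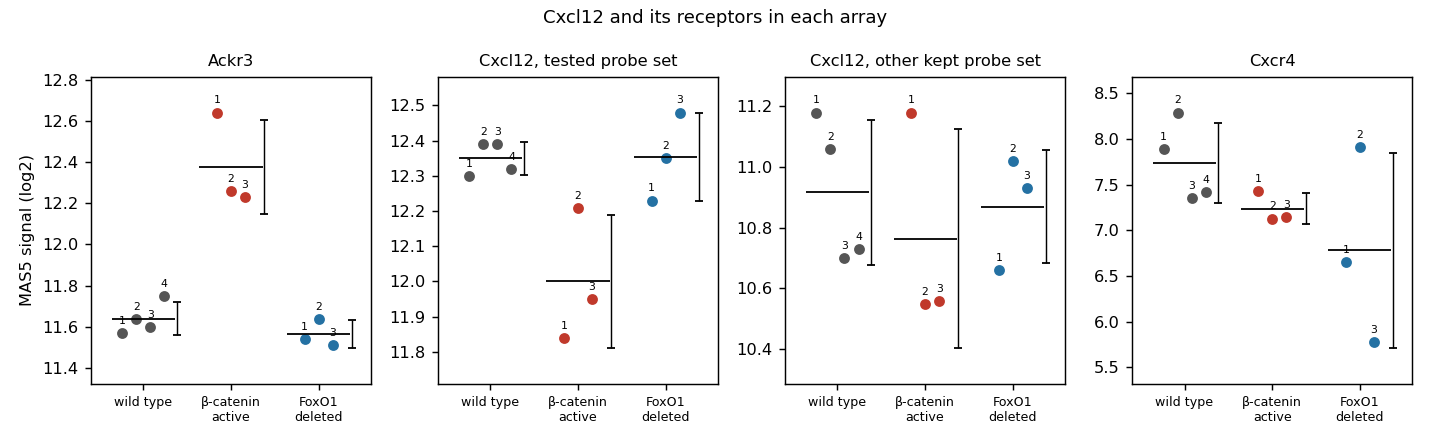
Log2 MAS5 signal of Ackr3, of the 2 kept Cxcl12 probe sets and of Cxcr4 in each of 10 arrays, by genotype, with separate vertical axes that do not start at 0. Points are arrays with their replicate number, lines are means and bars to the right are SD; the 3 Ackr3 values with active β-catenin (12.23 to 12.64) lie above all others.

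Cxcl12 was measured by 2 kept probe sets. The tested one gave 12.30, 12.39, 12.39 and 12.32 in the wild-type arrays, 11.84, 12.21 and 11.95 in those with active β-catenin and 12.23, 12.35 and 12.48 in those with FoxO1 deleted. All arrays with active β-catenin were below those of the other genotypes, and FoxO1 deleted spread around wild type. The difference of active β-catenin from wild type was -0.35 ± 0.09 (SE), which is 0.785-fold (limma adjusted p = 0.141), and 14% of all genes had groups that did not overlap in this comparison. The adjusted p ran from 0.0624 to 0.684 over the alternative settings, so Cxcl12 did not pass under any of them.

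The other kept Cxcl12 probe set did not separate the genotypes. It gave 11.18, 11.06, 10.70 and 10.73 in wild type and 11.18, 10.55 and 10.56 with active β-catenin, a difference of -0.15. Replicate 1 was the highest array of each of these genotypes, and the genotypes overlapped. With the 2 probe sets averaged, the Cxcl12 difference was -0.25 (limma adjusted p = 0.300). With FoxO1 deleted the tested probe set differed from wild type by 0.00 ± 0.09 (SE; limma adjusted p = 0.994) and the other by -0.05. The remaining Cxcl12 probe set stayed below the filter, at 1.56 to 5.18.

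Cxcr4, the signalling receptor of CXCL12, had a signal close to the table's median and spread widely. It gave 7.89, 8.29, 7.35 and 7.42 in the wild-type arrays, 7.43, 7.13 and 7.15 in those with active β-catenin and 6.65, 7.91 and 5.78 in those with FoxO1 deleted. FoxO1 deleted 3 had the lowest value of all arrays and FoxO1 deleted 2 the second-highest, so that genotype covered most of the wild-type range. The differences from wild type were -0.50 ± 0.42 for active β-catenin and -0.96 ± 0.42 for FoxO1 deletion (SE; limma adjusted p = 0.704 and 0.636). Without FoxO1 deleted 3 the second became -0.46 and without FoxO1 deleted 2 it became -1.52, while the first became -0.32 without wild type 2. B cell precursors and neutrophils carry this receptor, and the summed signal of 6 B cell markers was 449 to 796 in wild type, 255 to 472 with active β-catenin and 324 to 562 with FoxO1 deleted, with Cd79a, Pax5 and Vpreb1 never above the median. The part of these cells in the Cxcr4 values was not tested.

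The promoters of Ackr3 and Cxcl12 are shown because these 2 members had the smallest p-values with active β-catenin. β-catenin acts on genes through TCF/LEF factors, whose binding motif was searched as ATCAAAG on both strands from 250 bases before to 50 after the start site. Matches are in capitals and sequences are those of RefSeq, GRCm38.p6, written in the direction of the gene.
Ackr3, chr1:90203730-90204029, plus strand: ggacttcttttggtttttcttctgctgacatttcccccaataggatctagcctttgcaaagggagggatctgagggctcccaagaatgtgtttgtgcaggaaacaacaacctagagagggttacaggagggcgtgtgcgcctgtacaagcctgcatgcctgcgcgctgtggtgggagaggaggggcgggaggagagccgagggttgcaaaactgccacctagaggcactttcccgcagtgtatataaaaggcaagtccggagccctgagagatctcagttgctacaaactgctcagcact
Cxcl12, chr6:117168285-117168584, plus strand: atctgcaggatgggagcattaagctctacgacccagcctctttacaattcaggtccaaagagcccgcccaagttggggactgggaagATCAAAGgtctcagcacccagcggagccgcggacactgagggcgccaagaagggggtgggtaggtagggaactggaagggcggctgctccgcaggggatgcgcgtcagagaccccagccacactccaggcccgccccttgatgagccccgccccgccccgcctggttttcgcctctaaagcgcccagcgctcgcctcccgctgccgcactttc
The Cxcl12 window holds 1 match, starting at -163 from the start site, and the Ackr3 window holds 0. Of 32851 promoters of this length, 3.73% hold a match. A match is a description of letters and says nothing of binding in these cells.

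Of the 17 tested members, 7 had a positive and 10 a negative difference with active β-catenin, with a median of -0.08 beside 0.01 (0.005 unrounded) over all genes tested. An unadjusted p under 0.05 was found for 5 of the 17 (29.4%), where 12.1% of all genes had one. Groups did not overlap for 3 members (17.6%), a share near the 14% of all genes. These 3 were Ackr3, Cxcl12 and Ackr1.

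Ackr1, the Duffy antigen receptor that carries chemokines on vessels and red cells, gave 8.36, 8.26, 8.13 and 8.55 in wild type. It gave 8.0, 8.12 and 7.75 with active β-catenin and 8.03, 8.46 and 8.09 with FoxO1 deleted. The highest array with active β-catenin lay only just below the lowest wild-type array. The difference of -0.37 ± 0.16 (SE) did not pass (limma adjusted p = 0.389). The summed signal of 4 erythroid markers was 1010 to 2810 in wild type, 404 to 731 with active β-catenin and 412 to 1580 with FoxO1 deleted, and their part in the Ackr1 values was not tested.

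Among the other receptors, Cx3cr1, a receptor of monocytes and macrophages, differed by 0.50 ± 0.22 and Ackr2, a scavenger of CC chemokines, by 0.56 ± 0.35 (SE), and neither passed. Without β-catenin active 1 the Cx3cr1 difference was 0.28, and without β-catenin active 2 that of Ackr2 was 0.29. The Ackr2 probe sets below the filter differed by 0.42 and -0.44. Of the CXC ligands, Cxcl14, an orphan-like chemokine of epithelial and stromal cells, differed by 0.36 ± 0.17 and its other kept probe set by 0.29. On their tested probe sets, the remaining members Ccl27a, Ccl2, Cxcl16, Ackr4, Ccl12, Ccl25 and Cxcl1 had differences between -0.11 and 0.24. Their limma adjusted p was 0.696 or more. The other kept Cxcl16 probe set differed by 0.495 with active β-catenin, and its groups overlapped. With FoxO1 deleted it differed by 0.71, at 7.39, 7.65 and 8.04 against 7.24 at most in wild type. The tested Cxcl16 probe set differed by 0.09 there and overlapped.

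**Figure D2:**
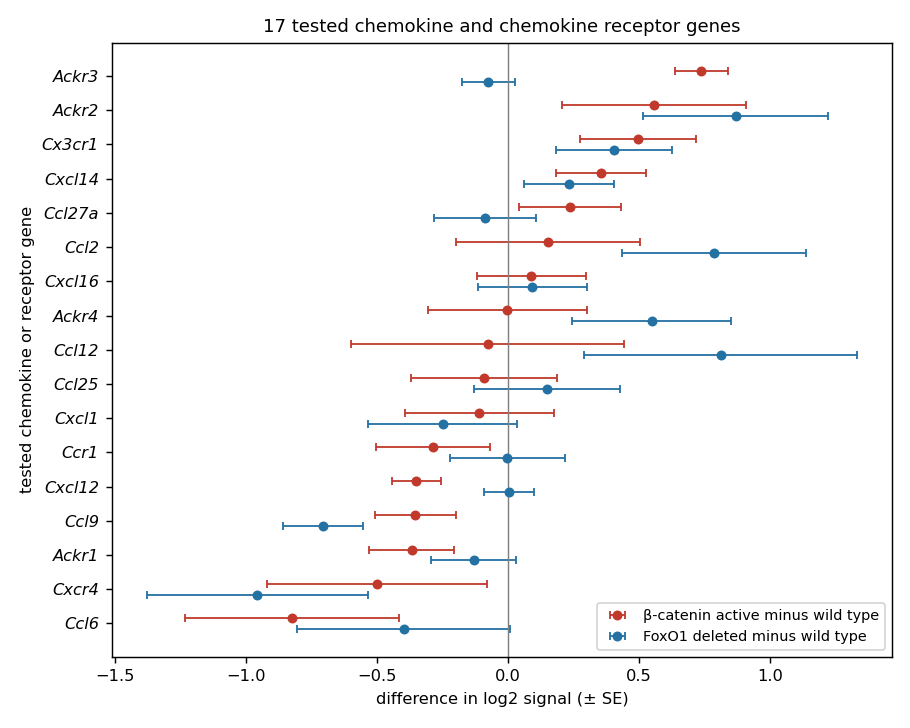
Difference from wild type in log2 signal ± SE for the 17 tested members, with active β-catenin in red and with FoxO1 deleted in blue, ordered by the red value. Both colours share the same wild-type arrays; Ackr3 at 0.74 with active β-catenin is the one value that passed limma's test.

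The second question was what loss of FoxO1 did. No member passed: 0 of 17 in limma, with 4 at an unadjusted p under 0.05 (23.5%), where 0.0264% of all genes passed (0.00881% as higher, 0.0176% as lower) and 7.83% had such a p. Positive differences numbered 9 and negative ones 8, with a median of 0.00 beside 0 over all genes. Groups did not overlap for 3 members, Ccl9, Ccl2 and Ackr4 (17.6%, beside 9.03% of all genes).

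Ccl9, a CC chemokine made by myeloid cells and osteoclasts, had the smallest p. It gave 10.70, 10.70, 10.47 and 10.24 in the wild-type arrays, 9.94, 10.32 and 10.26 in those with active β-catenin and 9.80, 9.57 and 10.09 in those with FoxO1 deleted. All 3 arrays with FoxO1 deleted were below all 4 of wild type, and those with active β-catenin overlapped both. The difference was -0.71 ± 0.15 (SE), 0.612-fold (limma adjusted p = 0.343). The other kept Ccl9 probe set differed by -0.62. Its values were 9.21, 9.35, 9.0 and 8.78 in wild type and 8.19, 8.24 and 8.97 with FoxO1 deleted, so on that probe set the groups overlapped.

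Ccl6, a neighbour of Ccl9 on chromosome 11 that is also made by myeloid cells, spread widely within genotypes. It gave 9.15, 9.29, 8.27 and 8.54 in the wild-type arrays, 7.18, 8.91 and 7.87 in those with active β-catenin and 7.87, 8.28 and 9.09 in those with FoxO1 deleted. The 2 pairs of wild-type arrays lay apart, and the genotypes overlapped on this probe set, the tested one. On the other kept probe set, active β-catenin (6.30, 6.97 and 5.86) lay below every wild-type array (7.0 to 8.19), β-catenin active 2 narrowly so. FoxO1 deleted overlapped wild type there. That probe set gave differences of -1.12 and -0.49. On the tested one the differences were -0.83 ± 0.41 for active β-catenin and -0.40 ± 0.41 for FoxO1 deletion (SE). Without β-catenin active 2 the first was -1.29 and without β-catenin active 1 it was -0.42. Ccr1, a receptor of CCL6 and CCL9 on osteoclast precursors, gave 10.10, 9.91, 9.41 and 9.47 in the wild-type arrays, 9.36, 9.66 and 9.29 in those with active β-catenin and 9.23, 9.84 and 10.09 in those with FoxO1 deleted, and the genotypes overlapped. Its differences were -0.29 ± 0.22 for active β-catenin and -0.0025 ± 0.22 for FoxO1 deletion (SE), and its other kept probe set gave -0.76 and -0.28. The first Ccr1 difference was -0.16 without wild type 1 and -0.57 among low-Xist arrays alone.

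Cxcr2, the neutrophil receptor for CXCL1 and CXCL2, did not pass the filter and was not tested. It gave 7.11, 6.97, 6.30 and 5.66 in the wild-type arrays, 2.95, 5.23 and 2.62 in those with active β-catenin and 4.29, 5.65 and 5.59 in those with FoxO1 deleted. Every mutant array was below every wild-type array, narrowly so for FoxO1 deleted 2, and all values lie below the table's median, so the sizes are inexact. Of the 61 member probe sets below the filter, 2 did not overlap with active β-catenin (Cxcr2 and 1 of Cxcl1) and 1 with FoxO1 deleted, which is 3.28% and 1.64% beside 6.92% and 6.65% of all probe sets below the filter.

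As for Cxcr2, neutrophil markers had a lower sum in every mutant array than in every wild-type array. Among the arrays with FoxO1 deleted they were highest in FoxO1 deleted 2, where Ccl9 was lowest on its tested probe set. The other kept Ccl9 probe set was lowest in FoxO1 deleted 1, at 8.19 beside 8.24 in FoxO1 deleted 2. Neutrophil markers were lowest in FoxO1 deleted 1. Their summed signal over 10 genes was 13600 to 29500 in wild type, 2810 to 3930 with active β-catenin and 1330 to 10200 with FoxO1 deleted, and none of the 10 lay at or below the table's median in every array. All 8 that were tested had negative differences in both comparisons, and 1 passed limma's test with active β-catenin. Osteoclast markers overlapped, at 37900 to 52600, 35800 to 44700 and 29000 to 46200. The part of neutrophils and osteoclasts in the values of Ccl6, Ccl9, Ccr1, Cxcr2 and Cxcr4 was not tested.

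**Figure D3:**
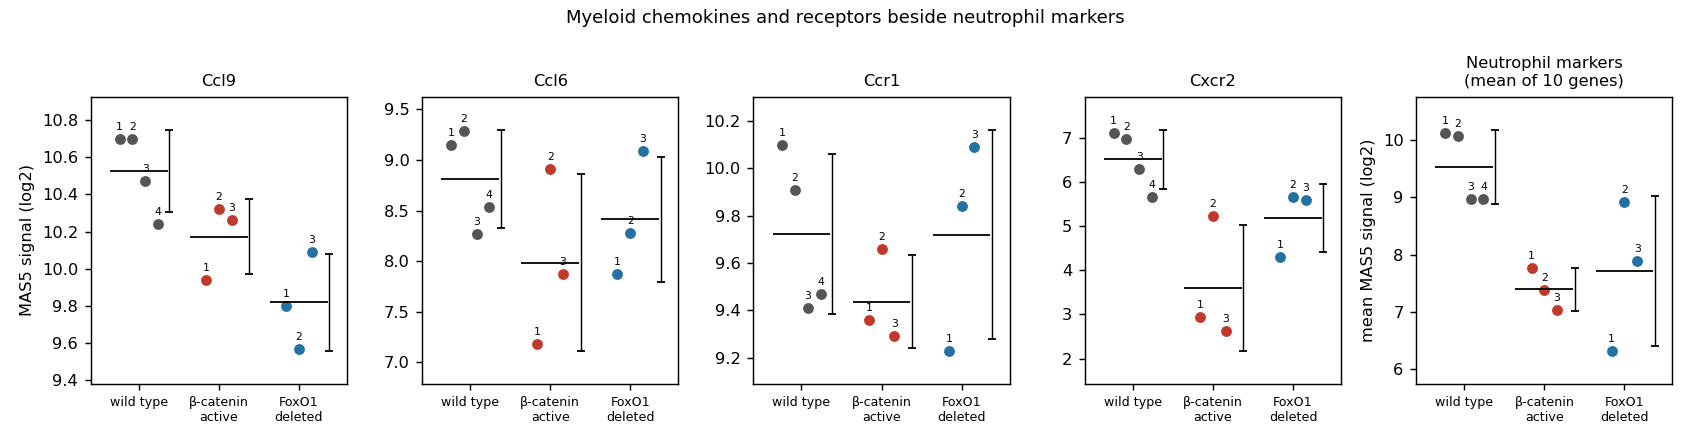
Log2 MAS5 signal of Ccl9, Ccl6, Ccr1 and Cxcr2 in each array, beside the mean log2 signal of 10 neutrophil markers, with separate vertical axes that do not start at 0. Points are arrays with their replicate number, lines are means and bars are SD; wild type 1 and 2 are the 2 highest wild-type arrays in every panel, and every mutant array is below all 4 wild-type arrays for Cxcr2 and for the neutrophil markers.

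Ccl2, the main monocyte attractant, gave 7.04, 6.74, 7.02 and 6.91 in the wild-type arrays, 7.19, 7.75 and 6.30 in those with active β-catenin and 7.39, 7.33 and 8.42 in those with FoxO1 deleted. All wild-type arrays lay below the table's median and all arrays with FoxO1 deleted above it. The difference from wild type was 0.79 ± 0.35 (SE; limma adjusted p = 0.637), and 0.43 without FoxO1 deleted 3. Ackr4, a scavenger of CCL19, CCL21 and CCL25, gave 7.15, 6.97, 6.12 and 6.89 in wild type and 7.16, 7.36 and 7.47 with FoxO1 deleted. The groups only just failed to overlap. Its difference was 0.55 ± 0.30 (SE; limma adjusted p = 0.670), while its 2 probe sets below the filter differed by 0.31 and 0.10. Without wild type 3, the lowest array, the Ackr4 difference was 0.33. Ackr2 differed by 0.87 ± 0.35 (limma adjusted p = 0.627) and by 0.53 without FoxO1 deleted 3. Its probe sets below the filter differed by 0.07 and 0.47, the latter at values of 1.35 to 4.01.

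A set of chemokines was high in FoxO1 deleted 3 and not in the other arrays with FoxO1 deleted. Cxcl9 on its first probe set was at 1.89, 2.16, 2.31 and 2.93 in wild type, at 2.81, 2.65 and 2.56 with active β-catenin, and at 2.86 and 1.68 in FoxO1 deleted 1 and 2. In FoxO1 deleted 3 it was at 12.73. The second Cxcl9 probe set was at 10.65 there and at 5.98 or less elsewhere. All other arrays were below the table's median on both probe sets, so no fold is given.

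Cxcl10 was at 10.83 in FoxO1 deleted 3 and at 5.77 to 6.74 in the other 9 arrays. Ccl8, which attracts monocytes and T cells, was at 11.01 against 6.17 to 7.45. Cxcl11 was at 7.95 against 6.46 or less, and RefSeq's GRCm38.p6 table does not list it as a protein-coding gene. In FoxO1 deleted 1 and 2, Cxcl10 was at 6.74 and 6.19, Ccl8 at 7.11 and 6.78 and Cxcl11 at 5.66 and 6.23, so the 3 arrays of this genotype did not share the high level. These 4 genes were above the median in 1 or 2 arrays of 10 and did not enter the test.

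Further CC ligands were highest in the same array. Ccl12 gave 7.86, 7.65, 7.76 and 8.35 in wild type and 8.26, 7.58 and 10.31 with FoxO1 deleted, a difference of 0.81 ± 0.52 (SE), of 0.02 without FoxO1 deleted 3 and of 1.38 without FoxO1 deleted 2. Ccl7 was at 7.23 in that array and at 6.38 or less elsewhere, and Ccl5 at 6.17 against 4.80 or less, the latter below the median throughout. Cxcr3, the receptor for CXCL9, CXCL10 and CXCL11, was at 7.12 in that array and at 5.89 to 7.23 in the others, so it did not stand out. In all, 21 of the 85 member probe sets had their highest value in FoxO1 deleted 3, where 11.3% of all probe sets with 1 gene had theirs. By level, 4 of the 85 (4.71%) were above the median and at least 2 log2 units above every wild-type array, beside 0.366% of all probe sets with 1 gene.

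**Figure D4:**
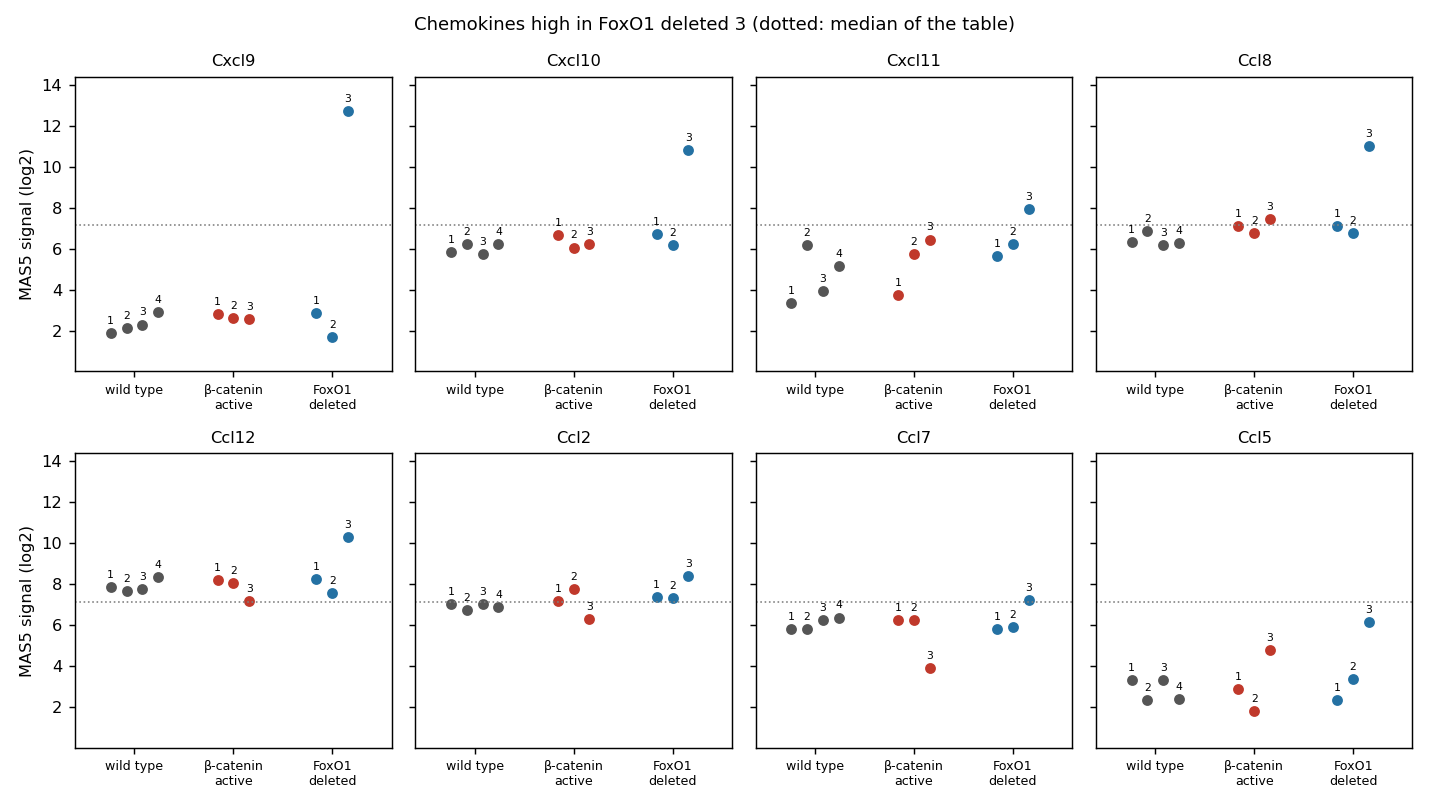
Log2 MAS5 signal of 8 chemokine genes in each of 10 arrays by genotype, on a shared axis, with the table's median of 7.15 as a dotted line. Points are arrays with their replicate number, and no mean is drawn; FoxO1 deleted 3 is the highest array in every panel, from 6.17 for Ccl5 to 12.73 for Cxcl9.

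Most of these genes lie in 2 clusters. RefSeq places Ccl2, Ccl7, Ccl11, Ccl12, Ccl8 and Ccl1 next to each other in that order on chromosome 11, and Cxcl9 and Cxcl10 with 1 coding gene between them on chromosome 5. Within the first cluster the levels in FoxO1 deleted 3 were uneven: Ccl8 and Ccl12 exceeded every other array by 3.56 and 1.96, Ccl7 and Ccl2 by 0.85 and 0.67, while Ccl11 at 4.86 and Ccl1 at 5.57 were within the range of the other arrays.

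The promoters of Cxcl9 and Cxcl10 are shown because these neighbouring genes were among the members far above every other array in FoxO1 deleted 3. They were searched on both strands for the interferon-stimulated response element (GAAA, any 2 bases, GAAA), the gamma-activated site (TTCNNNGAA) and the NF-kB motif, with matches in capitals and RefSeq, GRCm38.p6, as the source.
Cxcl9, chr5:92328030-92328329, minus strand: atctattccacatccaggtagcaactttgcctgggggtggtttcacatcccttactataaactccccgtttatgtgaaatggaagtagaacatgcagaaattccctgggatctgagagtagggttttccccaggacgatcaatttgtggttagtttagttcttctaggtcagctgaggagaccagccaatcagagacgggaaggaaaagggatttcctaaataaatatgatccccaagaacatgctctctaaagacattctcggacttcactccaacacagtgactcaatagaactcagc
Cxcl10, chr5:92348840-92349139, minus strand: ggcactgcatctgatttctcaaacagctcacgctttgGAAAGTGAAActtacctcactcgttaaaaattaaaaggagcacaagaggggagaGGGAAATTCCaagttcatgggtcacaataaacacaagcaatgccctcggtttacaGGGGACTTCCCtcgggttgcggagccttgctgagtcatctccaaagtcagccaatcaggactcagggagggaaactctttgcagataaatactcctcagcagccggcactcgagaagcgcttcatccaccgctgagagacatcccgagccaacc
The Cxcl10 window holds 1 interferon-stimulated response element, starting at -213, and 4 NF-kB matches. These start at -159, -104 and -103, the last on both strands, and those from -104 and -103 overlap. The Cxcl9 window, and those of Ccl8 and Ccl12, hold no match to any of the 3 motifs. Only these fixed patterns were searched, so other forms of interferon elements would be missed. Neither a match nor its absence says anything of binding in these cells. Matches to the 3 motifs occur in 3.44% (response element), 8.30% (gamma-activated site) and 8.46% (NF-kB) of 32851 promoters. The FoxO motif GTAAACA, which 3.65% of promoters hold, has no match in these 4 windows or in those of Ackr3 and Cxcl12.

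Interferon response genes ran with these chemokines. All 24 measured genes of a list of 27, chosen after the chemokine values were seen, were highest in FoxO1 deleted 3, and 20 of them exceeded every other array by at least 2 log2 units. Irf1, a transcription factor induced by interferon, was at 12.12 there and at 9.04 to 9.60 elsewhere. Ifng, which encodes interferon gamma, was at 5.26 against 2.53 or less, below the median in every array. The T cell markers Cd3e, Cd3d, Cd3g, Cd4 and Cd8a lay below the median in every array, and their summed signal was 161 to 202 in wild type and 94.2 to 150 with FoxO1 deleted. The summed signal of 12 macrophage markers was 28000 in FoxO1 deleted 3 and 18100 to 22700 in the others. C1qa, C1qb, C1qc, Fcgr1, Aif1, Ly86 and, by little, Adgre1 were highest in that array. Csf1r, Cd68, Cd163 and Mrc1 lay within the range of the other arrays, and Cd14 was lowest in FoxO1 deleted 3, at 7.49. The part of macrophages in these values was not tested.

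The remaining members were low. Of the 36 genes not tested, the CC ligands were Ccl1, Ccl3, Ccl4, Ccl5, Ccl7, Ccl8, Ccl11, Ccl17, Ccl20, Ccl22, Ccl24 and Ccl28. The CXC, XC and CX3C ligands were Cxcl2, Cxcl3, Cxcl5, Cxcl9, Cxcl10, Cxcl11, Cxcl13, Cxcl15, Cxcl17, Xcl1 and Cx3cl1. The receptors were Ccr1l1, Ccr2, Ccr3, Ccr4, Ccr6, Ccr7, Ccr8, Ccr9, Ccr10, Cxcr2, Cxcr3, Cxcr5 and Cxcr6. Leaving aside FoxO1 deleted 3, their probe sets reached 7.54 at most, for Ccl28. Of the 61 probe sets below the filter, 49 were never above the table's median and 12 were above it in 1 or 2 arrays. All 4 atypical receptors were tested, against 1 of 10 CC receptors, 2 of 6 CXC or CX3C receptors, 6 of 18 CC ligands and 4 of 15 CXC, XC and CX3C ligands.

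Ligands and their classical receptors were often not both above the filter. Cxcl12 with Cxcr4 and Ackr3, and Ccl6 and Ccl9 with Ccr1, were tested on both sides. Ccl2 was tested and Ccr2, its receptor, was not, as was the case for Cxcl16 and Cxcr6, for Ccl25 and Ccr9 and for Cxcl1 and Cxcr2. Cx3cr1 was tested while its ligand gene Cx3cl1 was not, its 4 probe sets reaching 7.31 at most.

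Other genes of the chemokine pathway were taken from a list of 77 symbols, among them G proteins, arrestins, GRK kinases, RGS proteins, effectors of migration and inducers of chemokine genes. Of the 55 tested, 0 passed limma's test in any of the 3 comparisons. With active β-catenin 29 of the 55 had a positive difference (median 0.03) and with FoxO1 deleted 23 (median -0.04). The smallest p-values with active β-catenin were those of Elmo1, a partner of DOCK proteins in cell migration (0.36, adjusted p = 0.167), and Mif, a cytokine that also binds CXCR4 (-0.33, adjusted p = 0.167). With FoxO1 deleted they were those of Rac2, a GTPase of blood cells (-0.63, adjusted p = 0.488), and Rgs2, a brake on G protein signals (-0.34, adjusted p = 0.590). Between the 2 mutants they were those of Rgs2 (0.55, adjusted p = 0.145) and Gnaq, a G protein subunit (0.24, adjusted p = 0.316).

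Between active β-catenin and FoxO1 deleted, 2 of the 17 members had an unadjusted p under 0.05 (11.8%, beside 8.03% of all genes), Ackr3 and Cxcl12. Cxcl12 differed by -0.35 ± 0.10 (SE; limma adjusted p = 0.267). Groups did not overlap for these and for Ccl27a, an epithelial chemokine that differed by 0.33 ± 0.21 (SE), where 9.54% of all genes did not overlap. Ccl27a shares sequence with near-identical copies, so its 1 probe set may not be specific to it.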

How the data were processed

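The deposited table holds log2 MAS5 signal for 45101 probe sets in 10 samples. MAS5 was run by the authors, per the submitters' processing notes, with no version given, and per the labels the arrays took biotin-labelled cRNA made from 500 ng of RNA. The log2 base follows from the values (-3.86 to 15.86): 2 raised to them, with 2% trimmed from either tail, averaged 499.993 to 500.013 per array. Low values were not floored, so differences under the median of 7.15 are inexact, and the number of arrays limits precision.

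Gene symbols come from the platform's annotation in GEO, and all 53 member gene IDs were found in RefSeq's GRCm38.p6 table, which served for names and gene order. The promoter table's coordinates are those of that build; no build is stated for the array.

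All 10 arrays were fitted with limma 3.58.1 in R 4.3.3, 1 mean per genotype, moderated with eBayes (trend on), and two-sided p-values with Benjamini-Hochberg adjustment over 11357 genes at 0.05 and 7 residual degrees of freedom. Simulated data with known changes were used to check the fit. Values by array are given for Cxcl12, Cxcr4, Ackr3, genes that passed and genes whose arrays did not overlap with wild type; Ccl6, Ccr1, Ccl12, Cxcr2 and the genes high in FoxO1 deleted 3 were added after their values were seen. The members, lists and tests were chosen with earlier results of these data known. The alternatives were 2 filters, 2 scalings, 2 ways to represent a gene, the 2 genotypes alone, a replicate block, no trend, 16 added on the linear scale, wild-type pairs averaged, 2 uses of Xist and leaving out each array. Further marker lists gave these summed signals, in the order wild type, active β-catenin and FoxO1 deleted. For megakaryocytes they were 610 to 720, 502 to 523 and 563 to 719. For mast cells they were 2680 to 3160, 591 to 3190 and 1580 to 2690. For skeletal muscle they were 26600 to 51200, 29000 to 57100 and 33600 to 56000.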

Additional observations from a re-analysis of the deposited data

Results flagged for a closer look

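Signals outside the tested genes, above every wild-type array, were found for 5 probe sets, all in FoxO1 deleted 3. Cxcl9 was at 12.73 on one probe set and 10.65 on the other, Cxcl10 at 10.83 and Ccl8 at 11.01, each above the table's median and at least 2 log2 units above every wild-type array. A probe set that lists 10 genes, a chemokine among them, was at 8.71, against 6.67 at most in wild type. No such signal was found for these probe sets in the other 5 mutant arrays. Among the wild-type values of the 17 tested members, 0 arrays lay far enough from the others to be singled out.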

How the results depend on the processing

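Over 34 results and 771 alternative values, 750 kept their direction and their side of the threshold. The count of members called with active β-catenin against wild type fell from 1 to 0 with the replicate block, with wild-type pairs averaged and with the Xist term, where Ackr3 differed by 0.77 (adjusted p = 0.0696), 0.74 and 0.79; it was 1 to 1 without any 1 array. Against FoxO1 deleted it was 0 with only the 2 genotypes fitted, with the Xist term and with low-Xist arrays alone, where Ackr3 differed by 0.81, 0.87 and 0.84. The cause was not tested. These settings also leave fewer arrays or degrees of freedom, and the part of that in the lost calls was not tested. With FoxO1 deleted the Cxcl12 difference, 0.00, changed sign to -0.022 with probe sets averaged, -0.01 (-0.0067) with the block, -0.01 (-0.0059) with the Xist term and -0.12 (-0.115) with low-Xist arrays, and ran from -0.06 to 0.07 (0.065) without 1 array. For active β-catenin minus FoxO1 deleted, Cxcr4 ran from -0.043 (without FoxO1 deleted 3) to 1.02 without 1 array, and Ccr1 became 0.21 in low-Xist arrays. Deviations of same-numbered arrays from their genotype means correlated at -0.287 to 0.29, with no common sign. This cannot settle whether the numbers pair samples. The block changed no other call. Cxcr4, Ackr2, Ackr4, Ccl2 and Ccl27a have no value under the stricter filter. Genes under the median, such as Cxcr2, cannot be sized here.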
